A study of Mus musculus with 10 samples.

Results

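Transcripts of 10 enzymes that build, desaturate and elongate fatty acids were examined in bulk RNA-seq of bEnd.3 cells, an immortalised line of wild-type mouse brain endothelial cells kept in medium with 10% fetal bovine serum. Saline was given to 5 samples (replicates 1, 2, 3, 4 and 5) and StcE at 5 nM to another 5 (replicates 1, 2, 3, 5 and 6), each for 16 h. StcE is a bacterial mucinase that cleaves proteins densely covered in mucin-type O-glycans, and a catalytically inactive form of it was not among these samples. The comparison asks how the cells' transcripts differ after their mucin domains are cut, in a single cell line. Its replicates are not stated to be separate cultures, so p-values set a difference against the spread between these samples, which may be technical.

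The 10 genes were *Acly*, *Acaca* and *Fasn* (synthesis), *Scd1*, *Scd2*, *Fads1* and *Fads2* (desaturation), and *Elovl1*, *Elovl5* and *Elovl6* (elongation), out of 27024 rows with a gene name. They were chosen by pathway after earlier results of this same contrast were known. Their levels and differences are therefore given as a description. They were part of the fit across all genes, and which of them lay past its threshold is given without p-values and supports nothing. Levels are in FPKM, fragments counted for each kilobase of a gene's length after correction for sequencing depth, and all 10 genes passed the minimum of a mean FPKM of 1 that was set for the fit across genes. The lowest saline mean among them was 4.39 FPKM (*Scd1*), so none depended on the StcE samples to pass.

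Fatty acid synthesis starts in the cytosol, where ATP citrate lyase (*Acly*) splits citrate to give acetyl-CoA, acetyl-CoA carboxylase (*Acaca*) turns it into malonyl-CoA, and fatty acid synthase (*Fasn*) assembles both into palmitate. In the endoplasmic reticulum the elongases of the *Elovl* family lengthen the chain, the stearoyl-CoA desaturases (*Scd1*, *Scd2*) put a double bond into saturated chains, and the desaturases encoded by *Fads1* and *Fads2* add double bonds to polyunsaturated ones. Many of these genes are known targets of the sterol regulatory element-binding proteins (SREBPs), and the products enter membrane phospholipids, whose chains are rich in polyunsaturated fatty acids in brain.

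The samples carried the transcripts of the labelled cell type. All 10 endothelial markers examined were present, and the most abundant was *Cdh5*, the adhesion molecule of endothelial junctions, at 486 FPKM over all samples. Their summed level was 1947, 1838, 1855, 1938 and 1799 FPKM in saline replicates 1 to 5 and 1696, 1749, 1771, 1795 and 1797 FPKM in StcE replicates 1, 2, 3, 5 and 6. Every StcE sample thus stood below every saline sample, and the part of this in the results on the enzyme genes was not tested. By limma, 6 of the 10 were lower after StcE and 0 higher, beside 6.41% lower and 5.52% higher of all genes tested, with a median log2 difference of -0.12. The receptors *Tek* (log2 difference -0.24, adjusted p = 0.00857), *Flt1* (-0.23, adjusted p = 0.00775) and *Tie1* (-0.18, adjusted p = 0.00295) were among them, and their calls were lost with the replicate number as a block (adjusted p from 0.068 to 0.079). *Pecam1*, *Erg* and *Esam* passed with smaller differences (-0.11, -0.12 and -0.07). These 3 calls were each lost on leaving out single samples. That of *Pecam1* was lost without any 1 sample other than saline replicate 5 or StcE replicate 2, that of *Erg* without any 1 sample other than StcE replicates 3 or 6, and that of *Esam* without any 1 of the 10, at limma adjusted p from 0.052 to 0.101. In bulk RNA of a single line, fewer cells carrying these transcripts and less of them per cell cannot be told apart. Of the markers of other cell types, *Cidea* (adipocytes), *Mag* (oligodendrocytes), *Rgs5* (mural cells) and *Lum* (fibroblasts) had no row under these names and no value here. The others were at or near 0. The sum over 4 adipocyte markers was at most 0.0786 FPKM in any sample. It was at most 0.115 FPKM over 5 astrocyte markers and at most 0.325 FPKM over 4 oligodendrocyte markers. The exceptions were *Acta2* of mural cells (3.14 FPKM over all samples), *Pdgfra* of fibroblasts (1.24 FPKM) and *Cd68* of leukocytes (20.1 FPKM). *Ptprc*, the pan-leukocyte marker, was listed at 0 in every saline sample and averaged 7.1e-04 FPKM in StcE samples. These 3 did not pass the threshold by limma (adjusted p = 0.85, 0.44 and 0.52).

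Of the 10 enzyme genes, 7 lay past a limma adjusted p of 0.05, all higher after StcE, beside 11.9% of the 11062 genes tested (5.52% higher and 6.41% lower). The StcE and saline samples did not overlap for 6 of the 10, beside 10.7% of all genes tested. Nothing is read from either count, because the same contrast was in view when the genes were chosen. The median log2 difference was 0.31 over the 10 genes and -6.6e-04 over all genes tested, and 92.4% of all genes differed by less than 0.2 in either direction. By role, 2 of 3 synthesis genes, 4 of 4 desaturases and 1 of 3 elongases lay past the threshold, and the 3 that did not were *Acaca*, *Elovl1* and *Elovl5*. With the replicate number as a block, *Fasn* did not lie past it either.

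**Figure D1:**
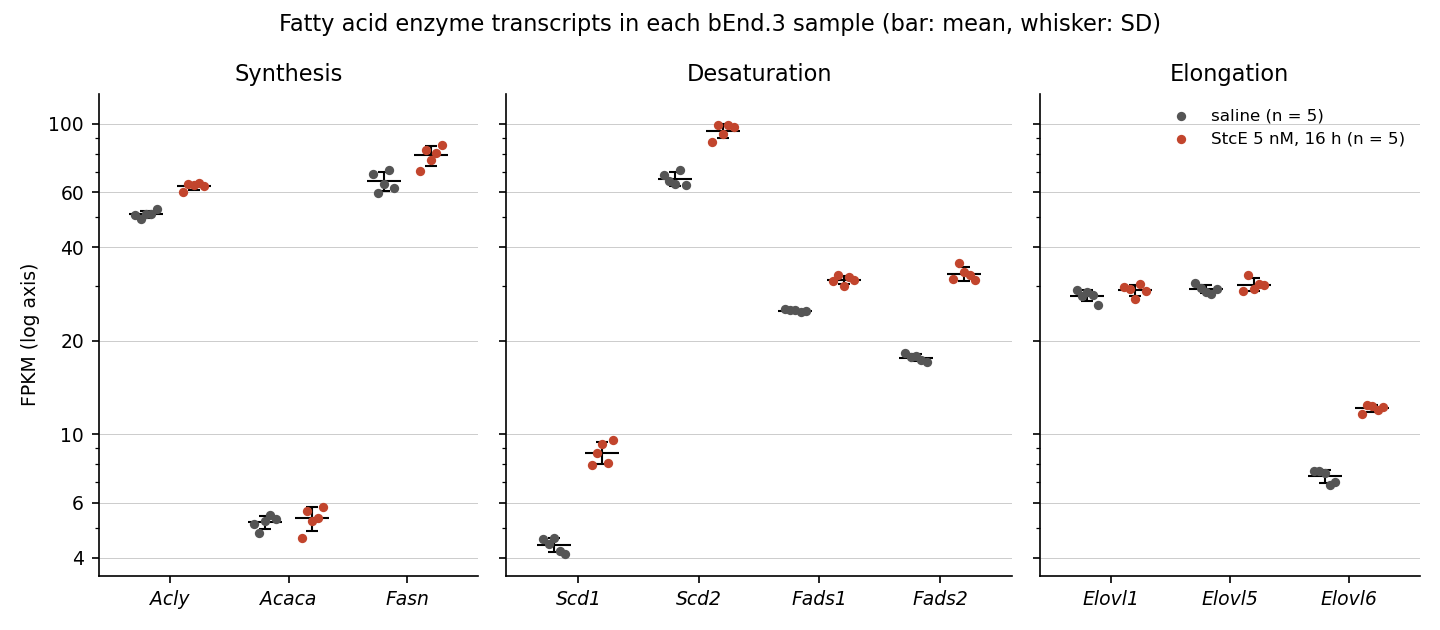
FPKM on a log axis of the 10 enzyme genes in each of 5 saline (grey) and 5 StcE (red) samples, grouped by step, with points for samples, bars for group means and whiskers for the SD. The groups stand apart for *Acly*, all 4 desaturases and *Elovl6*, and overlap for *Fasn* (in a single pair of samples), *Acaca*, *Elovl1* and *Elovl5*.

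Among the synthesis genes, *Acly* on chromosome 11, whose product supplies cytosolic acetyl-CoA, measured 50.7, 49.2, 51.1, 51.0 and 52.9 FPKM in saline replicates 1 to 5. After StcE it measured 60.2, 63.7, 63.5, 64.3 and 62.7 FPKM in replicates 1, 2, 3, 5 and 6. Every StcE sample exceeded every saline sample, and the lowest of them was replicate 1. The mean was 51.0 ± 1.30 FPKM in saline and 62.9 ± 1.60 FPKM after StcE (SD, n = 5 each), a log2 difference of 0.30 (SE 0.0251) on the scale of log2(FPKM + 1) used throughout.

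*Fasn*, which encodes the synthase that makes palmitate and was the most abundant of the 3, measured 68.9, 59.8, 64.1, 71.0 and 62.0 FPKM in saline and 70.4, 82.3, 76.6, 80.4 and 85.2 FPKM after StcE. The groups overlapped in a single pair of samples, since StcE replicate 1 (70.4 FPKM) fell below saline replicate 4 (71.0 FPKM). The log2 difference of *Fasn* was 0.27 (SE 0.0570), a size close to that of *Acly* with an error more than that of any other of the 10 genes.

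*Acaca*, whose carboxylase makes malonyl-CoA, measured 5.15, 4.81, 5.26, 5.47 and 5.34 FPKM in saline and 4.64, 5.67, 5.26, 5.36 and 5.82 FPKM after StcE. StcE samples held both its lowest and its highest value. Its log2 difference was 0.03 (SE 0.0510). The ratio of *Fasn* to *Acaca* FPKM was 12.5 ± 0.692 in saline and 14.8 ± 0.295 after StcE (SD, n = 5 each). Fragments of *Acaca* may be split with a near-identical copy, *Gm5182*, which matched 6118 of the 9513 bases of the longest *Acaca* transcript at 99.2% identity and stood at 3.45 ± 0.264 FPKM in saline and 3.60 ± 0.229 FPKM after StcE. The level of *Acaca* is uncertain for that reason.

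The 4 desaturases all lie on chromosome 19 and were all higher after StcE, with summed levels of 113 FPKM in saline and 168 FPKM after StcE. *Scd1* measured 4.59, 4.41, 4.62, 4.19 and 4.12 FPKM in saline and 7.98, 8.71, 9.27, 8.07 and 9.59 FPKM after StcE. Its mean level was 1.99 times as high after StcE, with no overlap between groups (log2 difference 0.85, SE 0.0505). *Scd1* was the least abundant of the 10 genes in saline, and between 465 and 1555 fragments per sample lay behind its values.

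*Scd2*, the abundant stearoyl-CoA desaturase of these cells, measured 68.5, 65.3, 63.7, 71.0 and 63.5 FPKM in saline and 87.1, 98.7, 92.7, 99.0 and 97.3 FPKM after StcE. The mean level was 1.43 times as high after StcE (log2 difference 0.51, SE 0.0420), again with StcE replicate 1 lowest in its group and still above every saline sample. *Scd1* made up 6.21 ± 0.430% of the summed FPKM of *Scd1* and *Scd2* in saline and 8.42 ± 0.638% after StcE (SD, n = 5 each). *Scd2* therefore accounted for most of the gain in the sum, from 70.8 ± 3.26 to 103.7 ± 5.30 FPKM, although *Scd1* had the larger difference on the log2 scale. The transcripts of both genes match at 95.5% identity over one stretch of 623 bases. Mismatched bases there can tell fragments of the genes apart, and how many fragments could be assigned to either was not worked out.

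*Fads1* measured 25.2, 25.0, 25.0, 24.8 and 24.8 FPKM in saline and 31.2, 32.4, 30.0, 32.0 and 31.3 FPKM after StcE. The saline values lay close together, between 24.8 and 25.2 FPKM, and every StcE sample was above them (log2 difference 0.32, SE 0.0237). *Fads2* measured 18.2, 17.7, 17.9, 17.3 and 17.1 FPKM in saline and 31.7, 35.5, 33.4, 32.5 and 31.4 FPKM after StcE. The mean level of *Fads2* was 1.87 times as high after StcE, and its log2 difference was 0.86 (SE 0.0340), rank 16 among all genes tested, with *Scd1* at rank 18. Which of the pair differed more depended on the setting. *Scd1* had the larger difference in 5 of 20 alternatives, among them a pseudocount of 0.1 (0.97 against 0.90 for *Fads2*) and voom on recovered fragments (0.98 against 0.90), and also by the ratio of mean FPKM.

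*Fads2* was higher relative to *Fads1* after StcE. In the deposited FPKM it stood at 0.706 ± 0.0136 of *Fads1* in saline and at 1.05 ± 0.0517 after StcE (SD, n = 5 each), with no overlap between groups. Which of the pair is the more abundant after StcE is uncertain, because the gene lengths behind the FPKM differ from the annotated ones. The values of *Fads2* give whole fragments at a length of 1508 bases while its annotated exons cover 3295 bases, and those of *Fads1* at 3456 bases against 4812. With the same fragments divided by the annotated lengths the ratio was 0.450 ± 0.00864 in saline and 0.668 ± 0.0329 after StcE, below 1 in every sample. That division pairs fragments counted on shorter gene models with the length of longer ones. Fragments outside the shorter models may not have been counted, so it cannot decide which gene is the more abundant. The fold between groups is the same on either length. *Fads3*, a related gene whose enzyme acts on other substrates, stood at 50.2 ± 1.10 FPKM in saline and 51.9 ± 1.66 FPKM after StcE (log2 difference 0.05, limma adjusted p = 0.28). Its share of the summed *Fads1*, *Fads2* and *Fads3* FPKM as deposited was 54.1 ± 0.342% in saline and 44.7 ± 1.01% after StcE. The size of that share also depends on the gene lengths, and it was not worked out on the annotated ones.

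**Figure D2:**
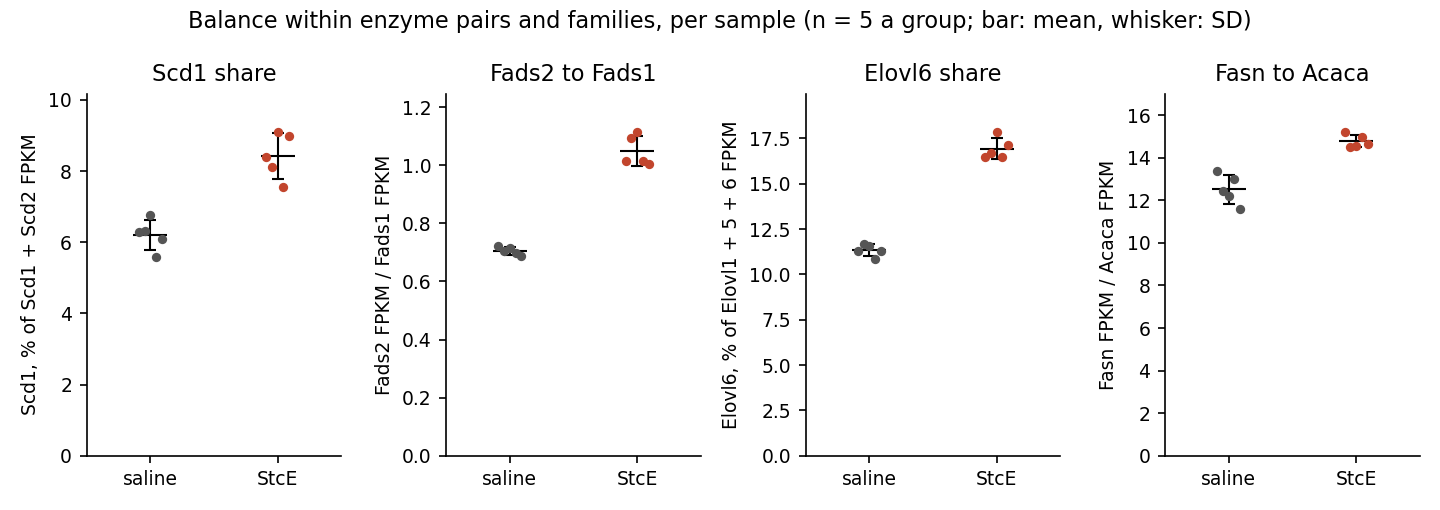
Balance between related enzyme genes in each sample, as a percent of summed FPKM or a ratio of FPKM, for 5 saline (grey) and 5 StcE (red) samples, with bars for means and whiskers for the SD and all axes from 0. *Scd1* goes from 6.21 to 8.42% of the *Scd* sum, *Fads2* from 0.706 to 1.05 times *Fads1*, *Elovl6* from 11.3 to 16.9% of the *Elovl* sum and *Fasn* from 12.5 to 14.8 times *Acaca*, with no overlap between groups. Dividing the same fragments by annotated exon lengths gives a *Fads2* to *Fads1* ratio of 0.450 and 0.668 instead, although fragments may not have been counted over all of those lengths.

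Of the 3 elongases, *Elovl6*, which extends palmitate and other saturated or monounsaturated chains, stood apart. It measured 7.63, 7.60, 7.50, 6.87 and 7.02 FPKM in saline and 11.6, 12.4, 12.3, 12.0 and 12.2 FPKM after StcE. The mean was 7.32 ± 0.355 FPKM in saline and 12.1 ± 0.334 FPKM after StcE (SD, n = 5 each), 1.65 times as high (log2 difference 0.65, SE 0.0336). *Elovl6* was the least abundant elongase of the 3 in both groups, and its share of their summed FPKM was 11.3 ± 0.314% in saline and 16.9 ± 0.578% after StcE.

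*Elovl1*, which acts on saturated and monounsaturated very-long chains, ranged from 26.0 to 29.0 FPKM in saline and from 27.1 to 30.4 FPKM after StcE. Its log2 difference was 0.06 (SE 0.0358). *Elovl5*, the elongase of polyunsaturated chains, ranged from 28.3 to 30.7 FPKM in saline and from 28.9 to 32.6 FPKM after StcE, a log2 difference of 0.05 (SE 0.0337). Groups overlapped for both genes, with differences close to the within-group SDs. *Elovl1* shares 53 exon bases (1.94% of its exons) with *Cdc20* on the opposite strand, and whether the counting used strand is not given in the sources used here.

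**Figure D3:**
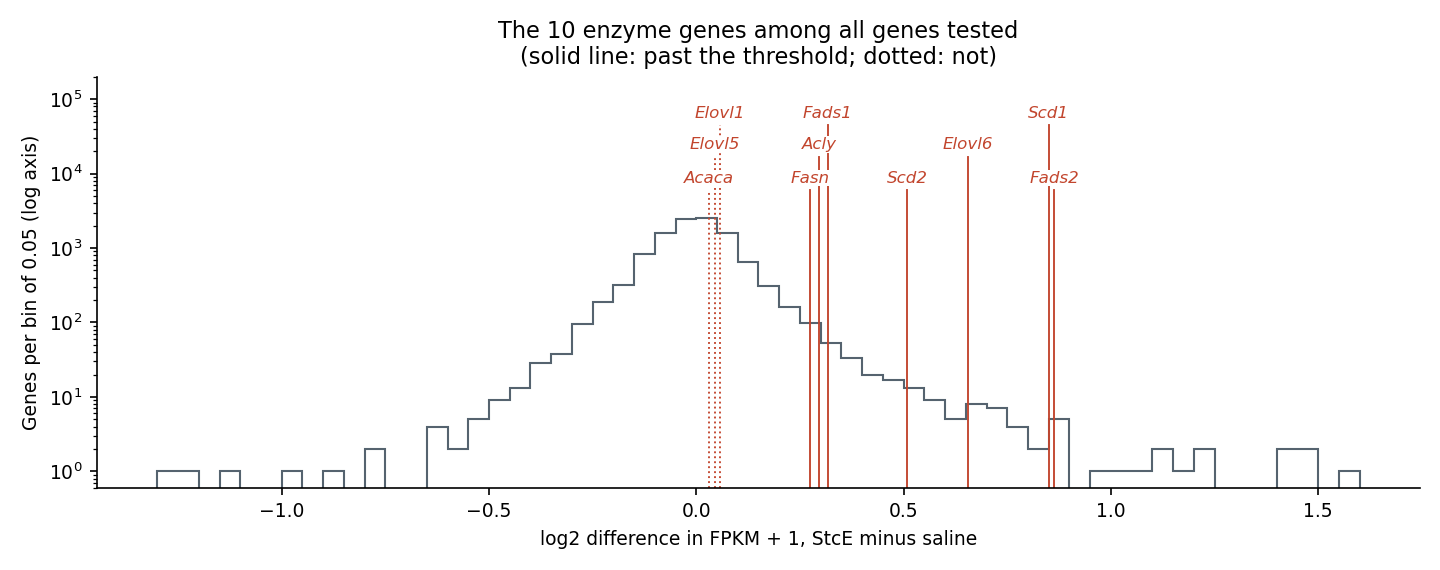
Number of genes (log axis) per bin of 0.05 in the log2 difference in FPKM + 1, StcE minus saline, for the 11062 genes tested, with the 10 enzyme genes as red lines (solid where past the threshold, dotted where not). *Acaca*, *Elovl1* and *Elovl5* fall near the centre at 0.03 to 0.06, and *Fads2* and *Scd1* lie in the right tail at 0.86 and 0.85, at ranks 16 and 18 of the genes tested.

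Within the StcE group, replicate 1 was the lowest sample for 7 of the 10 genes and replicate 2 the highest for 4. Averaged over the 10 genes, the log2 level relative to each gene's own mean was 0.12 in StcE replicate 1 and between 0.18 and 0.25 in the other StcE samples. In saline it lay between -0.23 (replicate 5) and -0.16 (replicate 1) and no saline sample reached any StcE sample, a separation that the choice of genes favours. Among tested genes outside the set, the 5 whose course over the 10 samples lay nearest to this average were *Pank3*, *Aacs*, *Gm38158*, *Cyb5b* and *Plaur*, at root mean square distances of 0.0250, 0.0412, 0.0572, 0.0578 and 0.0585 on the log2 scale. *Pank3*, the nearest, encodes a pantothenate kinase of coenzyme A synthesis and stood at 14.6 ± 0.527 FPKM in saline and 19.4 ± 0.558 FPKM after StcE (SD, n = 5 each).

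Promoter sequences from RefSeq were at hand for 7 of the 10 genes (8 windows), each taken here as the 250 bases before a RefSeq start. None was at hand for *Scd1*, *Scd2* or *Fads1*, so *Fads2* was the sole desaturase covered. Shown are those of *Acly* and *Fasn*, genes past the threshold whose windows lie wholly outside the annotated gene. Capitals mark, on either strand, the motifs TCACNCCAC (a sterol regulatory element), CACGTG (an E-box), CCAAT (bound by NF-Y) and GGGCGG (a GC box). All positions are in GRCm38.p6, and each run reads 5′ to 3′ along its gene.
*Acly*, chr11:100528001-100528250, minus strand: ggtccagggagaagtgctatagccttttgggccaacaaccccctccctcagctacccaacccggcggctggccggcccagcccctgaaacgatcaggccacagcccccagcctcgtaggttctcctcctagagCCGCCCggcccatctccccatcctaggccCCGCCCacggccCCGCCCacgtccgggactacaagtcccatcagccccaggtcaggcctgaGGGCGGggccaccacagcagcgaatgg
*Fasn*, chr11:120824548-120824797, minus strand: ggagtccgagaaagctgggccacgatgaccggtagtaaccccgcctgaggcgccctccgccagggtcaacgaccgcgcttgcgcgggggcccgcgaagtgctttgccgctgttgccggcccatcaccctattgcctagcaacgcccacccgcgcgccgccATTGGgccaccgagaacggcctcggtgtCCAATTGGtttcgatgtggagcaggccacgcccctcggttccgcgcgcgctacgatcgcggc

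*Acly* held 4 GC boxes and *Fasn* 3 CCAAT matches, of which the last 2 overlap within CCAATTGG. The windows of *Fads2* (1 GC box) and *Elovl6* (none of the 4 motifs) lie partly inside the annotated gene, with 243 and 31 of their 250 bases. TCACNCCAC was found in 0 of the 7 genes with a window, beside 1.05% of 32851 windows of the same length in the table. CACGTG was found for 1 gene (*Elovl5*) beside 6.02% of all windows, CCAAT for 3 genes (*Fasn*, *Elovl1* and *Elovl5*) beside 33.8%, and GGGCGG for 3 (*Acly*, *Fads2* and *Elovl1*) beside 32.7%. In *Elovl1* a CCAAT and a GGGCGG match share 2 bases. A match is a run of letters and not a bound site, and no match says only that these letters are not in this window. The window of *Acaca* (chr11:84195188-84195437), which held none of the 4 motifs, and 1 of the 2 windows of *Elovl1* (chr4:118429451-118429700) lie wholly inside the annotated gene, and that of *Elovl5* reaches 1 base into it.

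The lists of neighbouring genes held 84 names, of which 69 could be tested. By limma, 14 of them were higher and 8 lower after StcE (adjusted p under 0.05), beside 5.52% higher and 6.41% lower of all genes tested, with a median log2 difference of 0.01. The same shares stand beside the count of each list below, and nothing is read from these counts, because the lists were drawn up with earlier results of this contrast known. The regulators of lipid synthesis held the largest difference. *Insig1*, whose protein holds SREBPs in the endoplasmic reticulum, stood at 13.0 ± 0.742 FPKM in saline and 37.5 ± 1.33 FPKM after StcE (SD, n = 5 each; log2 difference 1.46, SE 0.0383, limma adjusted p = 3.8e-10), and it was the most abundant gene of that list over all samples, though not in saline alone. *Srebf2*, which encodes the SREBP tied mainly to sterol synthesis, was also higher (0.70, adjusted p = 2.8e-07), whereas *Srebf1*, whose protein is tied mainly to fatty acid synthesis, did not pass (19.2 ± 0.874 and 20.9 ± 1.10 FPKM, log2 difference 0.12, adjusted p = 0.080). *Scap*, the escort of SREBPs, was lower (-0.14, adjusted p = 0.017; 0.081 with the replicate number as a block). In all, 2 of 9 tested regulators were higher and 1 lower (median 0.03), *Nr1h3* stood near 0 (0.0378 FPKM in saline) and *Mlxipl* was not analysed here.

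**Figure D4:**
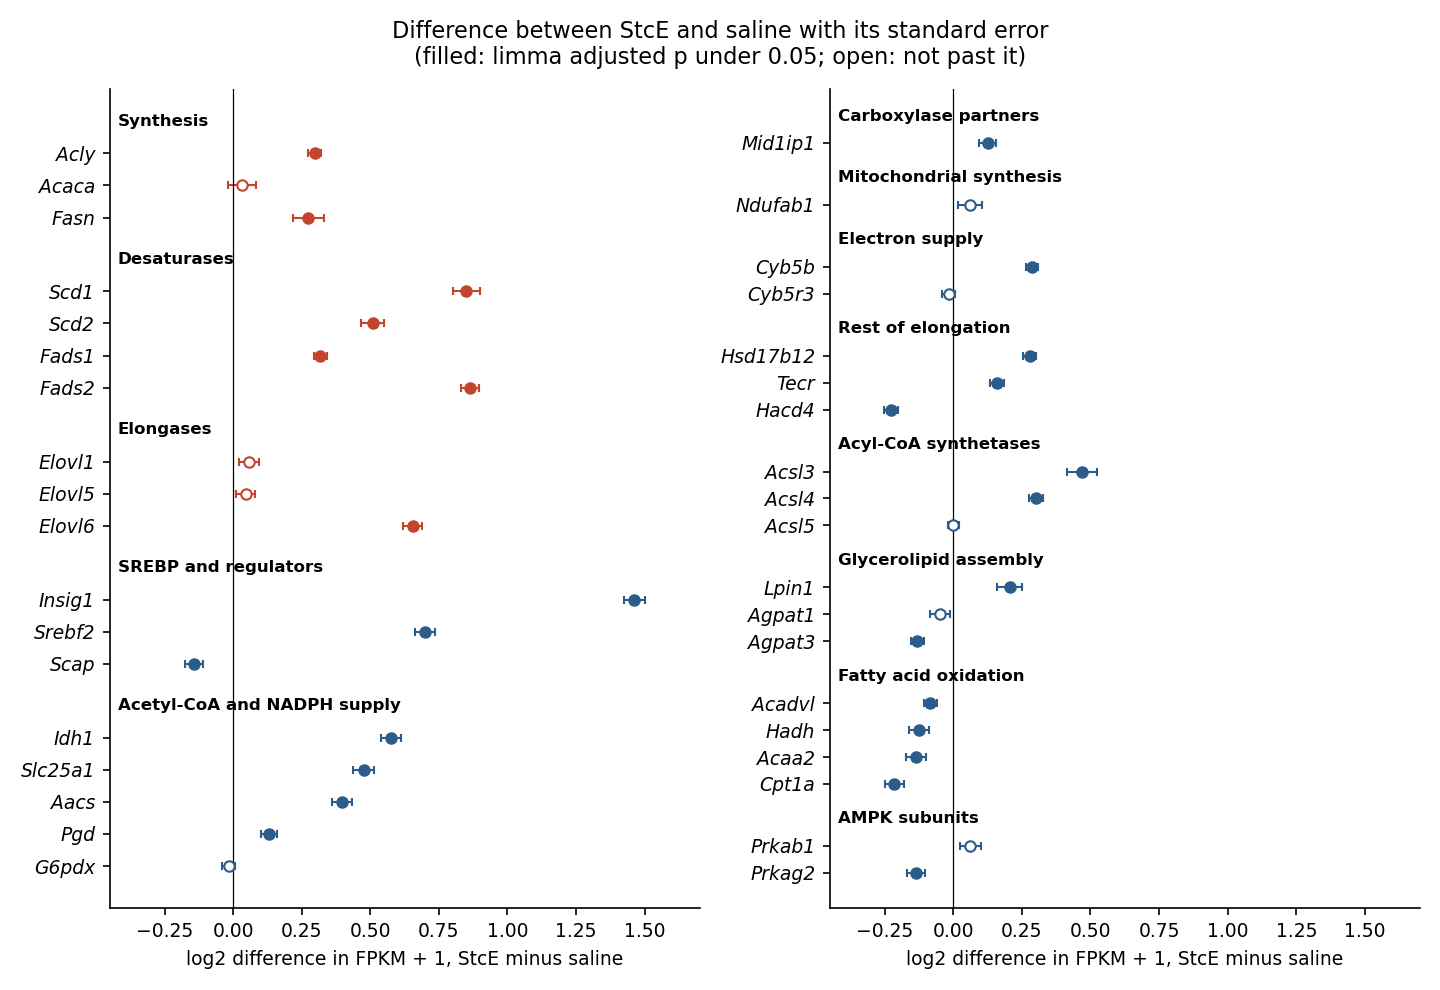
Log2 difference in FPKM + 1, StcE minus saline, with its standard error, for the 10 enzyme genes (red) and genes of neighbouring pathways (blue) named by a fixed rule; filled points passed a limma adjusted p of 0.05. Most filled points lie right of 0, up to *Insig1* at 1.46, and the 4 genes of fatty acid oxidation that passed lie left of it, from -0.21 (*Cpt1a*) to -0.08 (*Acadvl*); the other 10 tested on that list did not pass and are not shown.

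Genes that supply acetyl-CoA and NADPH were higher in 5 of 6 tested cases and lower in 0 (median 0.26), beside 5.52% and 6.41% of all genes tested. *Idh1*, the cytosolic isocitrate dehydrogenase, had a log2 difference of 0.58 (limma adjusted p = 1.8e-06), *Slc25a1*, the citrate carrier that feeds *Acly*, 0.48 (adjusted p = 1.1e-05), and *Aacs*, which activates acetoacetate, 0.40 (adjusted p = 4.4e-05). *Pgd* of the pentose phosphate pathway followed with 0.13 (adjusted p = 0.017) and *Me1*, the malic enzyme, with 0.10 (adjusted p = 0.025). Both calls were lost when scaled to total FPKM (adjusted p = 0.137 and 0.241) and with the replicate number as a block (0.152 and 0.168), which left 3 of 6 higher. That of *Me1* was also lost without any 1 of saline replicates 1, 2 or 4 or StcE replicate 3 (adjusted p from 0.055 to 0.065). *G6pdx*, the most abundant of this list, did not pass (49.9 ± 1.47 and 49.4 ± 1.01 FPKM, adjusted p = 0.72). *Acss2*, which makes acetyl-CoA from acetate, was too low to test, at 0.193 FPKM in saline and 0.274 FPKM after StcE.

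Partners of the desaturases and elongases passed in part. *Cyb5b*, the cytochrome b5 of the outer mitochondrial membrane, was higher (84.1 ± 1.33 and 102.9 ± 2.72 FPKM, log2 difference 0.29, limma adjusted p = 1.4e-05), as 1 of 4 tested genes of electron supply and further desaturases (0 lower, median 0.01). *Cyb5a*, the cytochrome b5 of the endoplasmic reticulum, where the desaturases and elongases sit, did not pass (33.5 ± 1.75 and 31.7 ± 1.58 FPKM, -0.08, adjusted p = 0.25). *Cyb5r3*, the cytochrome b5 reductase and most abundant of them, did not pass (-0.02, adjusted p = 0.69). In the elongation cycle, *Hsd17b12*, the ketoacyl reductase and most abundant gene of its list, was higher (0.28, adjusted p = 2.9e-05), as was *Tecr*, the enoyl reductase (0.16, adjusted p = 0.0024; 0.052 when scaled to total FPKM), while *Hacd4*, a dehydratase, was lower (-0.23, adjusted p = 2.0e-04). These were 2 higher and 1 lower of 6 tested, with a median of -0.02, and *Elovl2*, *Elovl3*, *Elovl4* and *Elovl7* all stayed under a mean of 1 FPKM.

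Among acyl-CoA synthetases, 2 of 4 tested were higher and 0 lower (median 0.15), namely *Acsl3* (0.47, limma adjusted p = 2.6e-04) and *Acsl4* (0.30, adjusted p = 1.9e-05), the latter known for its preference for arachidonate. *Acsl5*, the most abundant, measured 46.1 FPKM in both groups (SD 0.346 and 1.06, adjusted p = 0.99). Of 13 genes of glycerolipid assembly 1 was higher, *Lpin1*, and 1 lower, *Agpat3*, with a median of 0.05. *Lpin1* had a log2 difference of 0.21 (limma adjusted p = 0.014), which was 0.31 by voom and 0.30 with 0.1 as pseudocount. Its call was lost under the replicate block (0.106) and in the same 8 samples without the block (0.056). *Agpat3* had a log2 difference of -0.13 (limma adjusted p = 0.0052, and 0.123 under the block). *Agpat1*, the most abundant, did not pass (-0.05, adjusted p = 0.44).

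Genes of fatty acid oxidation, the opposite pathway, were lower in 4 of 14 tested cases and higher in 0 (median -0.04), beside 6.41% and 5.52% of all genes tested. *Cpt1a*, which admits long chains to mitochondria, stood at 35.9 ± 1.22 FPKM in saline and 30.8 ± 1.44 FPKM after StcE (SD, n = 5 each). Its log2 difference was -0.21 (limma adjusted p = 0.0026, and 0.053 under the replicate block). *Cpt1a* was the most abundant of the list in deposited FPKM. Its values give whole fragments at a length shorter than its annotated exons, so that rank depends on the lengths used. The calls of *Acaa2* (-0.14, adjusted p = 0.031), *Hadh* (-0.13, adjusted p = 0.048) and *Acadvl* (-0.08, adjusted p = 0.037) were each lost on leaving out single samples. That of *Acaa2* was lost without any 1 of saline replicates 4 or 5 or StcE replicates 2, 3, 5 or 6, that of *Hadh* without any 1 sample other than StcE replicates 2 or 5, and that of *Acadvl* without any 1 sample other than saline replicate 4 (adjusted p from 0.052 to 0.111).

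In the remaining lists few genes passed. Of 3 tested partners of the carboxylases, 1 was higher and 0 lower (median 0.03), namely *Mid1ip1*, which promotes polymerisation of acetyl-CoA carboxylase and was the most abundant (0.13, limma adjusted p = 0.022), and its call was lost without any 1 of saline replicate 4 or StcE replicates 3 or 5 (adjusted p from 0.051 to 0.055). Of 5 tested subunits of AMPK, the kinase that inhibits the carboxylases, 0 were higher and 1 lower (median 0.06), namely *Prkag2* (-0.14, adjusted p = 0.021; 0.054 without saline replicate 3), while *Prkab1*, the most abundant, did not pass (0.06, adjusted p = 0.32). Of 5 tested genes of the separate mitochondrial synthesis pathway, 0 passed in either direction by limma and 0 had an unadjusted p under 0.05 (median -0.01), and the most abundant, *Ndufab1*, had a log2 difference of 0.06 (adjusted p = 0.40).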

How the data were processed

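Paired-end reads were aligned to GRCm38 by the authors, who deposited FPKM with 1 column per sample; HISAT2 2.0.5, featureCounts 1.5.0-p3 and DESeq2 1.32.0 stand in the submitters' processing notes with no order. A further 22874 rows without a gene name were left out. With exon lengths of GENCODE vM21, 96.6% of values above 0 were whole fragments within 0.05; for 599 genes (all 4 desaturases included) the shortest length between 200 and 30000 bases that gave whole fragments in all samples was used. Recovered fragments ranged from 23108349 to 30584432 in saline and from 23059292 to 34947088 in StcE samples (exact two-sided permutation test, p = 0.270), and 3 fragments on 1 kilobase equal 0.0857 to 0.131 FPKM. Such floors cover counting error only. The scale of each sample followed its median-of-ratios size factor within 0.026%, so the deposited FPKM already carried a normalisation between samples.

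A linear model in limma 3.58.1 (R 4.3.3) was fitted to log2(FPKM + 1) of every gene whose mean FPKM reached 1 (eBayes with trend, condition as the sole term, Benjamini-Hochberg adjustment over all genes tested). The procedure was tested on simulated data drawn independently for each gene, a setting without sample effects shared between genes. This log-scale fit was the main test because the files hold FPKM and not counts, voom on recovered fragments was run as an alternative, and the pseudocount understates changes of low genes. Genes outside the set were named by rule: from each list, up to 4 past the threshold by size of log2 difference and the most abundant one tested, and the 5 nearest profiles. *Me1*, *Srebf1*, *Fads3*, *Cyb5a*, the genes under the minimum and the cell type markers beyond the rule were named after their values were seen. The members and lists were chosen with earlier results of these data known. Near-identical copies (at least 95% over 150 bases) were sought among vM21 transcripts with BLAST 2.17.0.

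The 20 alternatives were no filter or a minimum of 0.1 on mean FPKM, 0.1 as pseudocount, scaling to total FPKM or to the upper quartile, robust eBayes, the replicate number as a block, voom on recovered fragments and each sample left out in turn; scaling to total FPKM without *Gm23935* and the 8 blocked samples without the block were chosen after seeing the data.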

Additional observations from a re-analysis of the deposited data

Results flagged for a closer look

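In 7 of 108 groups of 5 samples examined, the highest or lowest sample stood apart, with a gap to its nearest neighbour of more than 0.71 of the whole range; chance gives about 1 in 20 groups, here 5.4. None of the 7 concerned one of the 10 enzyme genes. The 3 on StcE replicate 1 are of genes picked as nearest to the course of these 10, in which that sample is the lowest of its group. For *Pank3* and *Gm38158* that selection favours a low value there. *Cyb5b* was also named by the rule for its own list, so it would have been examined without that selection. In StcE replicate 1, *Cyb5b* measured 98.14 FPKM beside 103.2 to 104.9 in the other StcE samples, *Pank3* 18.43 beside 19.46 to 19.79 and *Gm38158* 43.88 beside 49.0 to 50.45. In StcE replicate 6, *Slc25a1* measured 24.07 FPKM beside 26.06 to 26.74. *Cldn5* measured 267.1 FPKM in StcE replicate 2 beside 320.3 to 335.5. In saline replicate 5, *Pgd* measured 15.76 FPKM beside 14.69 to 14.98 and *Tie1* 125.9 beside 135.4 to 139.0. What sets these samples apart was not tested.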

How the results depend on the processing

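All 10 enzyme genes kept the direction of their log2 difference in all 20 alternatives. Of the 7 past the threshold, 6 were past it in all 20 and *Fasn* in 19, the exception being the replicate block (6 of the 7 past it there). *Acaca*, *Elovl1* and *Elovl5* were past it in 0. These counts support nothing, because the genes were chosen with results of this contrast known. Counts over all genes moved more. They were 1320 (611 higher, 709 lower) as reported, 801 (392 and 409) with no filter, where more genes are tested, and 790 (272 and 518) when scaled to total FPKM; the cause of the last was not tested, but the total includes *Gm23935*, and without it the count was 1284 (575 and 709). Neighbouring pathway genes numbered 22 (14 higher, 8 lower) as reported and 14 (10 and 4) when scaled to total FPKM. Leaving out single samples gave 793 to 1257 genes (384 to 590 higher, 409 to 667 lower) and 5 to 6 neighbouring genes lower. The fewest, 793, came without StcE replicate 3, and 837 (428 lower) came without saline replicate 1. Replicate numbers did not pair samples: deviations of same-numbered samples correlated at -0.097, -0.023, -0.027 and 0.054 (replicates 1, 2, 3 and 5). With the number as a block over these 8 samples, 352 genes passed (187 and 165), 11 of them neighbouring (10 and 1); without the block the same 8 gave 885 (433 and 452), with 4 neighbouring genes lower. Calls named above as lost without single samples were also lost over these 8 samples, both with and without the block, as was that of *Lpin1*. Those of *Pgd*, *Agpat3*, *Cpt1a*, *Scap*, *Tek*, *Flt1* and *Tie1* were lost with the block only. The 8 neighbouring calls lost when scaled to total FPKM were those of *Pgd*, *Tecr*, *Me1*, *Mid1ip1*, *Acaa2*, *Hadh*, *Acadvl* and *Prkag2*, and those of the markers *Erg* and *Esam* were lost there too. Further calls lost were, with a minimum of 0.1, those of *Hadh*, *Pecam1*, *Erg* and *Esam*, with no filter these and that of *Acaa2*, with the upper quartile those of *Pecam1* and *Erg*, with robust eBayes that of *Esam*, and by voom those of *Acadvl* and *Esam*. *Srebf1* gained a call by voom, *Kdr* without StcE replicate 2 and *Cdh5* under 3 alternatives. With the upper quartile and by voom, 2 genes of glycerolipid assembly were higher instead of 1. In the same 8 samples without the block, 1 AMPK subunit was higher instead of 0. Depth sets a limit of 465 fragments for the least covered enzyme gene, *Scd1*, in its lowest sample.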
